A study of Mus musculus with 4 samples.

Results

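*Neb*, *Flnc*, *Dgkk*, *Abca13*, *Pdrg1* and *Lrp2* are 6 genes whose RNA was higher in both samples of mouse prefrontal cortex (PFC) in which *Ash1L* was knocked down. They are 6 of the 23420 gene symbols counted, and they were chosen by their counts in these 4 samples, for large rises in this same comparison, with no numeric limit stated for the choice. Their rise is therefore described here and not tested, and it supports nothing by itself. The tissue came from wild-type C57BL6/J mice, aged 6 to 8 weeks per the description of the series, which carried a virus injected into the PFC. In the 2 *Ash1L* shRNA samples the AAV9 expressed a short hairpin RNA against *Ash1L* from a U6 promoter, which is not restricted to a cell type, and in the 2 GFP samples the labels give a GFP AAV9, whereas the paper describes a scrambled shRNA AAV. Punches with GFP fluorescence were taken as bulk tissue, in which transduced and other cells lie together. Tissue of several mice was pooled for a sample per the paper, while the series description names 3 shRNA and 2 control mice.

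ASH1L is a histone H3 methyltransferase, and its marks are found at transcribed genes. The 6 genes belong to unlike families. Nebulin (*Neb*) and filamin C (*Flnc*) are large actin-binding proteins best known from striated muscle, where nebulin runs along the thin filament and filamin C cross-links actin at the Z-disc and at the cell membrane. Diacylglycerol kinase kappa (*Dgkk*) converts the lipid messenger diacylglycerol to phosphatidic acid. ABCA13 is a very large member of the ABCA family of lipid transporters. PDRG1 is a small prefoldin-like protein found in a chaperone complex with URI and R2TP. Megalin (*Lrp2*) is an endocytic receptor of the LDL receptor family, known from the kidney tubule, the choroid plexus and the developing forebrain.

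The starts of these genes are shown because the genes moved in the same direction, so that the letters in front of them can be set side by side. Each run is the sequence before the most upstream RefSeq start (GRCm38.p6), read 5′ to 3′ on the strand of the gene, and capitals mark the motifs found on either strand, the GC box (GGGCGG), the CCAAT box (CCAAT) and the TATA box (TATAA). *Flnc* is shown from chr6:29432903-29433152 (plus strand), *Dgkk* from chrX:6779056-6779305 (plus), *Abca13* from chr11:9191692-9191941 (plus), *Pdrg1* from chr2:153015428-153015633 (minus) and *Lrp2* from chr2:69586066-69586279 (minus). For *Pdrg1* and *Lrp2*, the last 44 and 36 of the 250 bases lie inside the gene in GENCODE vM21 and are not printed, and *Neb* is not shown.
Flnc: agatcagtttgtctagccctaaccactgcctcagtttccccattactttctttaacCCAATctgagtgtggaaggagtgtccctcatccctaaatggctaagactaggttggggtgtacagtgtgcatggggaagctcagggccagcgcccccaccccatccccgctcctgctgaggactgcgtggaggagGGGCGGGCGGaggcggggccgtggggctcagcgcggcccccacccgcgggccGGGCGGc
Dgkk: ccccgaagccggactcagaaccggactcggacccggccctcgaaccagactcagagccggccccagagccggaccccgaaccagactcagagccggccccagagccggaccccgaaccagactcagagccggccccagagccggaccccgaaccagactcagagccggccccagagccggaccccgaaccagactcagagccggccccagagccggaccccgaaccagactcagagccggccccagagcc
Abca13: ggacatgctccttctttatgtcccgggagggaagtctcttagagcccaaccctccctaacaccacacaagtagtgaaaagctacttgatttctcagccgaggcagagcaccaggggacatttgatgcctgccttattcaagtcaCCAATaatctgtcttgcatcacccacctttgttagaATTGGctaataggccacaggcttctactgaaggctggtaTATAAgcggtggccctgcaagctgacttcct
Pdrg1: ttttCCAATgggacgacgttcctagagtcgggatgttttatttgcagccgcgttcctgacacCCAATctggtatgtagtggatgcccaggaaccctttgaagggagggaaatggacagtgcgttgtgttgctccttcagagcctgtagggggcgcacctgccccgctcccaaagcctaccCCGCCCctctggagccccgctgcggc
Lrp2: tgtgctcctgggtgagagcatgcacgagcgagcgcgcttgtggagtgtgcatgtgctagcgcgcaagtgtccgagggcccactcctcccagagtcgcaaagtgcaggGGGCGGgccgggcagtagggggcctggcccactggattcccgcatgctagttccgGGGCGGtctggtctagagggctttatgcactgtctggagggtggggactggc

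The windows had little in common. A GC box was found in 3 of 5 windows (*Flnc*, *Pdrg1* and *Lrp2*), against 56.1% of the 11728 windows of 250 bases of tested genes. In *Flnc*, 2 of its 3 GC boxes overlap. A CCAAT box was found in 3 of 5 windows (*Flnc*, *Abca13* and *Pdrg1*), against 35.8% of all windows. Of the 5 windows, only that of *Abca13* held TATAA, beginning 31 bases before the start, a motif present in 12.9% of all windows. TGACGT, the AP-1 motif TGANTCA and the E-box CACGTG were searched as well and were in 0 of the 5 windows, and they were in 9.42%, 4.51% and 8.13% of all windows. These matches are letters in a window and not sites of binding. The CpG content differed between the genes. The ratio of observed to expected CpG was 0.20 for *Abca13* (3 CpGs), 0.51 for *Flnc* (13 CpGs), 0.69 for both *Pdrg1* (15 CpGs) and *Lrp2* (18 CpGs), and 0.72 for *Dgkk* (22 CpGs), and its median over all windows was 0.69. The *Dgkk* window was a tandem repeat in which 94.4% of the bases matched those 36 bases further on. This window rests on the annotated start alone, and whether the transcript begins further upstream was not tested. Its motif counts and CpG ratio may therefore not be those of a promoter.

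Total counts per sample ran from 14251190 to 35764874, so that 1 CPM (the count scaled to a common library size with edgeR's TMM factors) was worth 14.1 counts in GFP sample 1 and 35.1 in GFP sample 2, 27.4 in shRNA sample 1 and 20.7 in shRNA sample 2. The targeted gene *Ash1l* (chr3:88950622-89079375) was at 245 and 290 CPM in the GFP samples and at 216 and 138 CPM in the shRNA samples. Its transcript was thus lower in both shRNA samples, and lower in sample 2 than in sample 1. Without overlap, 26.8% of all tested genes were lower as well. The log2 fold change of *Ash1l* was -0.60 (standard error 0.22), and with single samples left out it ran from -0.97 (without shRNA sample 1) to -0.31 (without shRNA sample 2). *Ash1l* was DOWN by the limits given below, but not under an offset for gene length. Neuronal marker genes, which bear on the label of the tissue, were present in all 4 samples, with the sums given beside the other cell types. A gene is called UP or DOWN here when its unadjusted P in edgeR's quasi-likelihood test is under 0.05 and its level differs at least 1.2-fold. Of 16232 genes tested, 8.61% were UP and 8.28% were DOWN. Benjamini-Hochberg adjustment left 1 gene, which was lower (0.00616%), at an adjusted p under 0.05 by edgeR, against 2746 genes at an unadjusted p under 0.05 and 421 genes by adjusted p in DESeq2. A single UP or DOWN call is thus a call without adjustment over all genes. All 6 genes were UP and did not overlap between the groups, but the choice of the genes used this contrast, and 26.5% of all tested genes were higher and 26.8% lower without overlap.

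**Figure D1:**
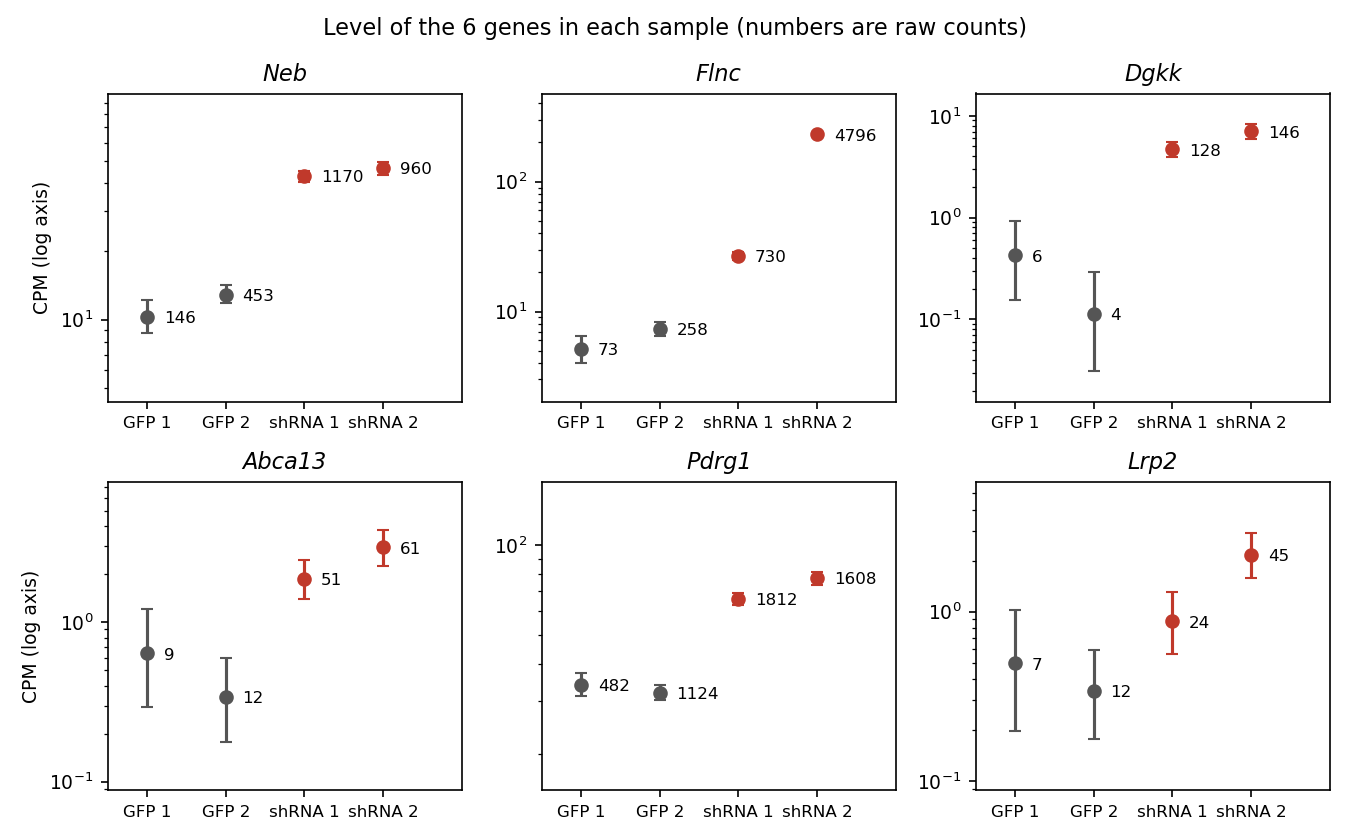
Level of each of the 6 genes in the 4 samples, in CPM on a log axis with exact Poisson 95% intervals as bars and raw counts as numbers, 1 panel per gene. Both *Ash1L* shRNA samples lie above both GFP samples in every panel, and *Flnc* in shRNA sample 2 (4796 counts) stands far above shRNA sample 1 (730 counts).

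*Neb* (ENSMUSG00000026950, chr2:52136647-52378474, minus strand) had 146 counts in GFP sample 1 and 453 in GFP sample 2. In shRNA sample 1 it had 1170 counts and in shRNA sample 2 it had 960. Scaled to library size these were 10.3 and 12.9 CPM in the GFP samples, and 42.7 and 46.3 CPM in the shRNA samples. The GFP samples lay close together and far below the shRNA samples, which also lay close together. The mean was 11.6 ± 1.82 CPM (SD, n = 2) in GFP and 44.5 ± 2.55 CPM (SD, n = 2) in shRNA samples, which is a rise by 1.93 on the log2 scale (standard error 0.16), or 3.8-fold. Any shRNA sample exceeded any GFP sample by 3.31-fold to 4.48-fold. *Neb* has the longest exonic sequence of the 6 genes, 26.58 kb in 166 exon blocks, longer than in 99.8% of the tested genes. It overlaps only annotated genes that were not counted, among them an antisense transcript that shares 45 exonic bases, and the strand setting of the counting is not given in the sources used here.

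*Flnc* (ENSMUSG00000068699, chr6:29433256-29461883, plus strand) was the other gene of the actin cytoskeleton. Its counts were 73 and 258 in the GFP samples and 730 and 4796 in the shRNA samples, or 5.17, 7.35, 26.7 and 231 CPM. The shRNA samples did not carry the same rise. Against the GFP mean, *Flnc* was 4.26-fold higher in shRNA sample 1 and 36.9-fold higher in shRNA sample 2, so that the samples of 1 group differed 8.68-fold. The GFP mean was 6.26 ± 1.54 CPM (SD, n = 2) and the shRNA mean was 129 ± 145 CPM (SD, n = 2), with an SD larger than the mean. The log2 fold change of 4.33 (standard error 1.30) rests on shRNA sample 2, and it was 2.06 without that sample. The exact Poisson 95% interval was 24.8 to 28.7 CPM in shRNA sample 1 and 225 to 238 CPM in shRNA sample 2, so the samples differed by far more than counting error. Such intervals, here and below, cover counting error only. Between the groups they test nothing, as the genes were picked for their rise in these same counts.

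*Dgkk* (ENSMUSG00000062393, chrX:6779306-6948363, plus strand) was close to undetected in the GFP samples. It had 6 counts in GFP sample 1 and 4 in GFP sample 2, against 128 in shRNA sample 1 and 146 in shRNA sample 2. In CPM these were 0.425 and 0.114, with Poisson 95% intervals of 0.156 to 0.925 and 0.0311 to 0.292, against 4.67 and 7.04, with intervals of 3.90 to 5.56 and 5.95 to 8.28. The intervals of the GFP and shRNA samples did not overlap, which describes a gene picked for its rise and is no test of it. With a mean of 0.270 ± 0.220 CPM in GFP and 5.86 ± 1.68 CPM in shRNA samples (SD, n = 2), *Dgkk* changed by 4.70 on the log2 scale (standard error 0.60), the largest of the 6 genes and rank 10 of all tested genes. The size of such a fold hangs on a few control counts, and single pairs of samples gave from 11-fold to 61.8-fold. The library of GFP sample 2, with the most counts of the 4, held the fewest counts of *Dgkk*.

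*Abca13* (ENSMUSG00000004668, chr11:9191942-9684259, plus strand) spans 492 kb, the longest locus of the 6, and was also scarce. Its counts were 9 and 12 in the GFP samples and 51 and 61 in the shRNA samples, or 0.638, 0.342, 1.86 and 2.94 CPM. Both shRNA samples were above both GFP samples, and the interval of shRNA sample 1 (1.39 to 2.45 CPM) did not reach that of GFP sample 1 (0.292 to 1.21 CPM). This too describes a gene picked for its rise. The means were 0.490 ± 0.209 and 2.40 ± 0.764 CPM (SD, n = 2), which makes a log2 fold change of 2.38 (standard error 0.52). The rise was 3.8-fold over the GFP mean in shRNA sample 1 and 6.01-fold in sample 2.

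*Pdrg1* (ENSMUSG00000027472, chr2:153008890-153015427, minus strand), the shortest locus at 6.54 kb, had the smallest fold and many counts. It had 482 and 1124 counts in the GFP samples and 1812 and 1608 in the shRNA samples, which were 34.1, 32.0, 66.2 and 77.6 CPM. The GFP samples were nearly equal and every shRNA sample was 1.94-fold to 2.42-fold above every GFP sample. The means were 33.1 ± 1.49 and 71.9 ± 8.08 CPM (SD, n = 2), with 1.12 as the log2 fold change (standard error 0.13), which is rank 593 of all tested genes. The change of *Pdrg1* was moderate and even over the samples. For scale, 4.40% of tested genes had a log2 fold change of at least 1 and 1.04% one of at least 2.

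*Lrp2* (ENSMUSG00000027070, chr2:69424340-69586065, minus strand) had the narrowest gap between the groups, 1.77-fold between its nearest samples. Its counts were 7 and 12 in the GFP samples and 24 and 45 in the shRNA samples, or 0.496, 0.342, 0.876 and 2.17 CPM. The group order held in each pair of samples, but the interval of shRNA sample 1 (0.561 to 1.30 CPM) overlapped those of GFP sample 1 (0.199 to 1.02 CPM) and GFP sample 2 (0.177 to 0.598 CPM). In shRNA sample 2 the interval was 1.58 to 2.91 CPM, above both GFP intervals. The means were 0.419 ± 0.109 and 1.52 ± 0.916 CPM (SD, n = 2), for a log2 fold change of 1.89 (standard error 0.63). Without shRNA sample 2 it was 1.13. In these bulk samples, more cells with a transcript and more RNA per cell cannot be told apart, for *Lrp2* and for the other genes.

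**Figure D2:**
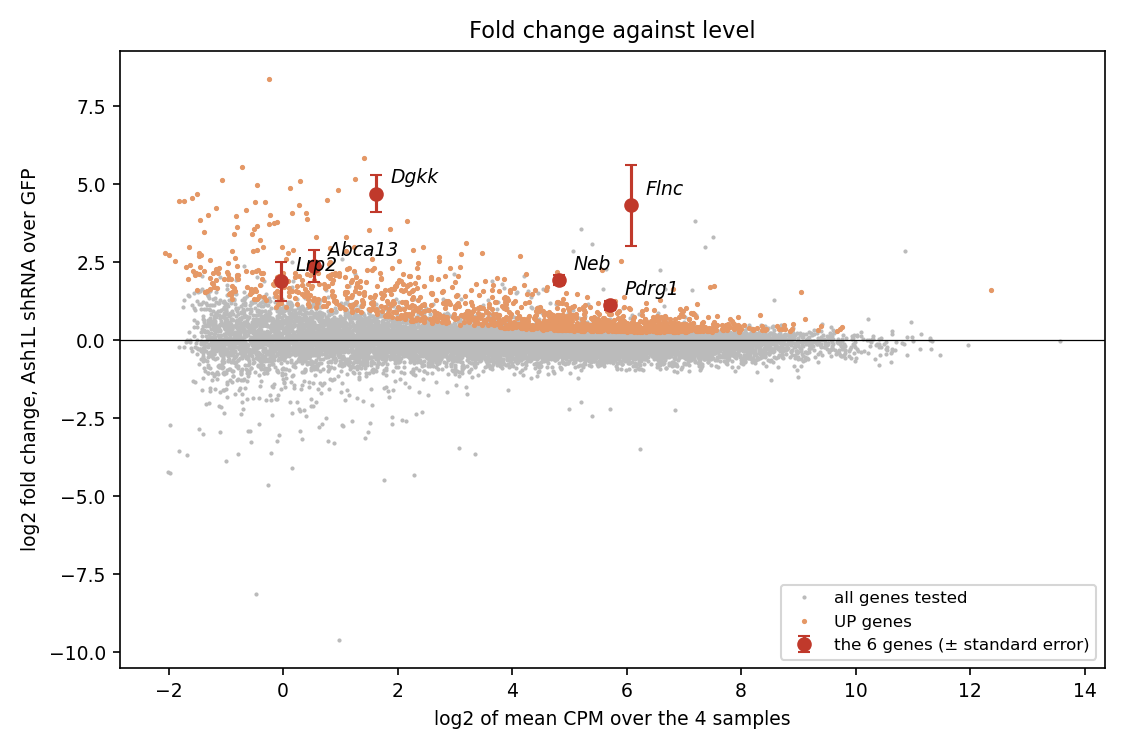
Log2 fold change (*Ash1L* shRNA over GFP) against the log2 of the mean CPM over the 4 samples, for all 16232 tested genes in grey, the UP genes in orange and the 6 genes in red with their standard errors. *Dgkk* (4.70) and *Flnc* (4.33) lie highest and *Pdrg1* (1.12) lowest, and *Flnc* has the widest standard error.

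Levels of different genes can be compared only per exonic length. In CPM per kb, *Pdrg1* was the highest of the 6 in the GFP samples (14.0 and 13.1), followed by *Flnc* (0.550 and 0.782) and *Neb* (0.389 and 0.486). *Dgkk* (0.0594 and 0.0159), *Abca13* (0.0323 and 0.0173) and *Lrp2* (0.0297 and 0.0205) were lower still, and their ranges overlapped, so that these 3 could not be ordered. In the shRNA samples *Pdrg1* (27.1 and 31.8 CPM per kb) was again the highest. *Flnc* (2.83 and 24.6) lay above *Neb* (1.61 and 1.74), *Neb* above *Dgkk* (0.653 and 0.984), and *Dgkk* above *Abca13* (0.0943 and 0.149) and *Lrp2* (0.0525 and 0.130), whose ranges overlapped. The filter on low counts asked for about 0.420 CPM in 2 samples. *Neb*, *Flnc* and *Pdrg1* reached it in all 4 samples, while *Dgkk*, *Abca13* and *Lrp2* reached it in 1 GFP sample and both shRNA samples, so these 3 entered the test through the group in which they were high.

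The shRNA samples were then compared with each other. All 6 genes were higher in shRNA sample 2 than in sample 1, by 1.08-fold in *Neb*, 1.17-fold in *Pdrg1*, 1.51-fold in *Dgkk*, 1.58-fold in *Abca13*, 2.48-fold in *Lrp2* and 8.68-fold in *Flnc*. *Neb* and *Pdrg1* were nearly alike in both samples, and *Flnc* and *Lrp2* were not. This order of the samples was not particular to the 6 genes, as 80.8% of the 1397 UP genes were higher in sample 2, and 152 of them differed by more than 2-fold between the shRNA samples. *Ash1l* was also lower in sample 2, at 138 against 216 CPM, and whether the depth of knockdown relates to the rise was not tested. With 1 sample at each level, knockdown depth and any other difference between these samples cannot be told apart.

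**Figure D3:**
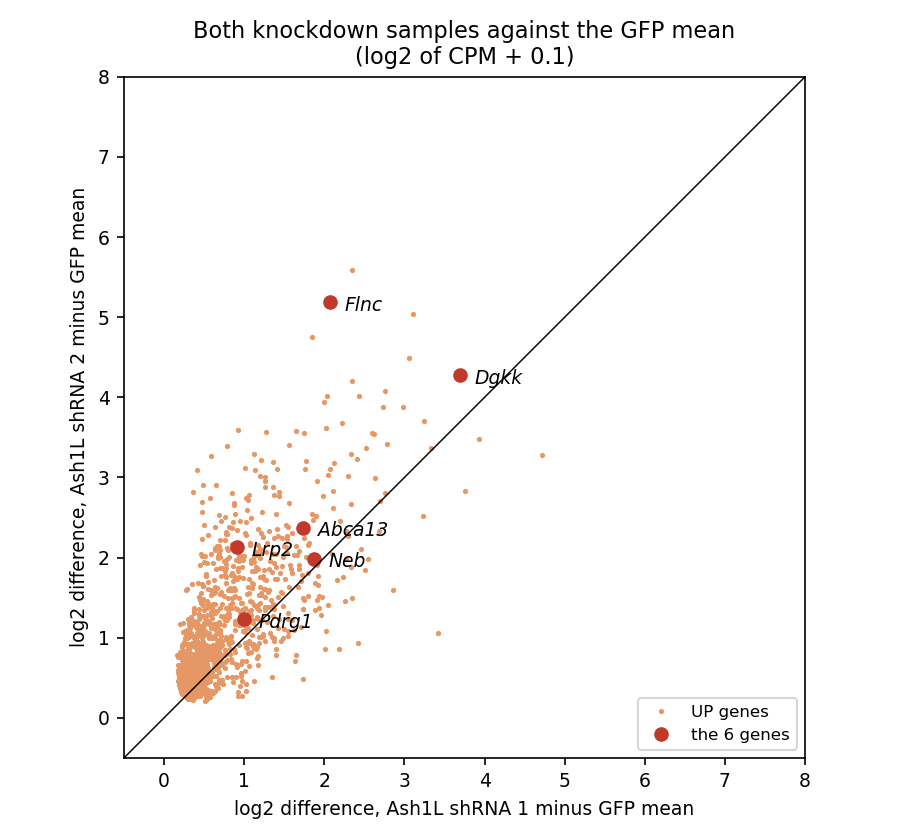
Log2 difference from the GFP mean in *Ash1L* shRNA sample 1 (x axis) and in sample 2 (y axis), after adding 0.1 to the CPM, for the 1397 UP genes in orange and the 6 genes in red, with a line of equal difference. *Neb* and *Pdrg1* lie near the line and *Flnc* lies farthest above it among the 6.

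The likeness of profiles over the 4 samples was measured as the Euclidean distance between log2 CPM values centred on the mean of each gene. A distance of 0 is the same profile. The log2 values used a prior count of 2, which shrinks the differences of genes with few counts. Among the 6 genes, *Abca13* and *Lrp2* were the closest (0.74) and *Flnc* and *Pdrg1* the most distant (3.28). Of all tested genes, the nearest to *Neb* was *Spp1* (0.036), which encodes the secreted protein osteopontin and had 60, 187, 471 and 395 counts, followed by *4932435O22Rik* and *Gdf5*. The nearest to *Flnc* was *Wnt9b*, a Wnt ligand, at a distance of 0.293. It had 1 and 6 counts in the GFP samples and 19 and 121 in the shRNA samples, so that it too was higher in sample 2, and *Pgr15l* and *Dnmt3l* came next at 0.970 and 0.979. For *Dgkk* these were *Cd300lb* (0.612, with 13, 13, 191 and 200 counts), *Dhrs9* and *Morc1*. *Abca13* was nearest to *Col22a1*, a collagen gene with 132, 174, 643 and 785 counts (0.107), then to *1700007G11Rik* and *Slc22a7*. *Pdrg1* was nearest to *AK010878* (0.005), *Smc1b* and *Col6a4*, and *Lrp2* to *Steap1* (0.072), *Anks4b* and *Cngb1*. Distances over 4 samples are given as a description only.

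Some of the genes are unusually long. *Neb*, *Abca13* and *Lrp2* were longer in exonic sequence than 99.8%, 99.3% and 98.4% of the tested genes. The other 3 were not at that end, with *Flnc* at the 89.1st, *Dgkk* at the 78.5th and *Pdrg1* at the 21.5th percentile. Over all genes, 7.82% of the genes were UP in the longest of 10 equal bins of exonic length, against 7.49% to 10.4% over the 10 bins. Under an offset that removes the trend of counts with length, the log2 fold changes were 1.97 for *Neb*, 2.41 for *Abca13* and 1.92 for *Lrp2*. They were 4.34 for *Flnc*, 4.72 for *Dgkk* and 1.11 for *Pdrg1*. Each moved by less than the spread between replicates, a loose limit where replicates vary (SD on the log2 scale 0.124 in *Pdrg1* and 1.577 in *Flnc*). *Neb*, *Pdrg1* and *Lrp2* lie on chromosome 2, which holds 7.91% of the tested genes.

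The genes that work with each of the 6 were described next, beside the 8.61% of all tested genes that were UP and the 8.28% that were DOWN. Of 24 listed partners of nebulin on the thin filament and at the Z-disc, 21 were tested, 4 were UP and 1 was DOWN, and the median log2 fold change was 0.15, against 0.00 over all genes. *Klhl40*, which encodes a protein that stabilizes nebulin, was UP with 101, 243, 285 and 386 counts in the 4 samples and a log2 fold change of 1.04 (standard error 0.30, adjusted p = 0.260, edgeR's quasi-likelihood test). *Lmod3*, which encodes an actin nucleator of the thin filament, was UP at 3.74 (standard error 1.25), but its counts of 4, 1, 72 and 9 show that shRNA sample 1 carried most of the reads and that the fold hangs on few control counts. *Tpm1* (0.76) and *Cfl2* (0.38), for a tropomyosin and a cofilin, were UP by less, and *Tmod2*, for the tropomodulin of neurons, was DOWN at -0.30. The relatives *Nebl*, *Nrap* and *Lasp1* of *Neb* were not called and differed in direction. *Nebl* was at 0.09 (standard error 0.12), *Nrap* at 0.81 (standard error 0.415) and *Lasp1* at -0.86 (standard error 0.36). *Tcap* had the lowest value of the list at -0.96 and was not called.

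Of 17 tested filamins and filamin C partners, 3 were UP and 1 was DOWN, with a median of 0.23. The UP genes were partners of *Flnc* in muscle cells. *Bag3*, a co-chaperone that clears damaged filamin, had 43, 101, 126 and 207 counts and a log2 fold change of 1.30 (standard error 0.41, adjusted p = 0.260 in edgeR's test). *Hspb7*, a small heat shock protein, had 10, 24, 53 and 42 counts and a log2 fold change of 1.51 (standard error 0.40, adjusted p = 0.255 in edgeR's test). *Xirp1*, which encodes the actin-binding protein Xin, rose from 3 and 14 to 19 and 29 counts, at 1.63 (standard error 0.62). *Flna*, for filamin A, was not called at 0.36 (standard error 0.32). *Inppl1* was DOWN at -0.44, and *Xirp2* had the lowest value, -0.52, without a call.

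Among the 9 other diacylglycerol kinases, 1 was UP and 1 was DOWN, with a median of -0.05. *Dgkg* was UP at 0.77 (standard error 0.25), with 2373, 3973, 5338 and 5895 counts, and *Dgkz* was DOWN at -0.82 (standard error 0.32), with 5309, 17779, 8939 and 3565 counts. Both are expressed at levels at which counting error is negligible, and neither came near the fold of *Dgkk*.

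Of 15 ABCA transporters beside *Abca13*, 12 were tested, 2 were UP and 2 were DOWN, with a median of -0.05. *Abca17* had 14, 50, 94 and 189 counts and a log2 fold change of 2.32 (standard error 0.54, adjusted p = 0.253, edgeR's quasi-likelihood test), near the 2.38 of *Abca13*. It stayed UP with any 1 sample left out, at 1.46 (without shRNA sample 2) to 2.85. *Abca5* was UP at 0.37, and *Abca3* (-0.31) and *Abca9* (-0.60) were DOWN.

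Of the 13 tested subunits of the prefoldin, URI and R2TP complexes, 2 were UP, *Pfdn4* at 0.54 (standard error 0.18) and *Pfdn1* at 0.37 (standard error 0.12), both of them subunits of canonical prefoldin. The median was 0.00 and the lowest value was -0.40 in *Uxt*, which was not called. Their summed level was 438 to 458 CPM in the 4 samples.

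The 20 tested members of the LDL receptor family and partners of megalin held 2 UP and 2 DOWN genes, with a median of 0.07. *Vldlr*, a reelin receptor, was UP at 0.45 (standard error 0.12), and *Dab2*, an adaptor of megalin in endocytosis, at 0.50 (standard error 0.20). *Lrp4* was DOWN at -0.49 (standard error 0.15) and *Gipc1*, which binds the tail of megalin, at -0.65 (standard error 0.24). The megalin co-receptor genes were not called, with *Cubn* at 0.76 (standard error 0.51) and *Amn* at -0.78 (standard error 0.38).

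Over all 6 lists, 14 of 92 tested related genes were UP and 7 were DOWN, against 8.61% and 8.28% of all tested genes, and the adjusted p-values of these 21 genes ran from 0.253 to 0.291 in edgeR's test. The lists were set with earlier results of these data known. The count rests on single libraries. It fell to 1 UP gene (*Abca17*) and 0 DOWN genes without GFP sample 2, and to 7 UP and 3 DOWN without GFP sample 1. Without shRNA sample 2 there were 9 UP and 3 DOWN genes, and without shRNA sample 1 there were 20 and 14. Of the 14 UP genes, *Klhl40*, *Tpm1*, *Xirp1*, *Bag3*, *Abca5*, *Pfdn1*, *Pfdn4* and *Dab2* lost their call without GFP sample 1. *Xirp1*, *Bag3*, *Dgkg*, *Abca5*, *Pfdn1* and *Pfdn4* lost it without shRNA sample 2, and *Dab2* without shRNA sample 1. *Lmod3* had too few counts to be tested without shRNA sample 1. *Xirp1* and *Dab2* were also not UP in DESeq2. Of the 7 DOWN genes, *Tmod2* lost its call with any 1 sample left out. *Inppl1*, *Dgkz*, *Abca3* and *Abca9* lost it without GFP sample 1, and *Inppl1*, *Abca3*, *Abca9* and *Gipc1* without shRNA sample 2. *Abca3* was also not DOWN in DESeq2. *Klhl40* was at 0.57 and *Bag3* at 0.64 without shRNA sample 2.

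**Figure D4:**
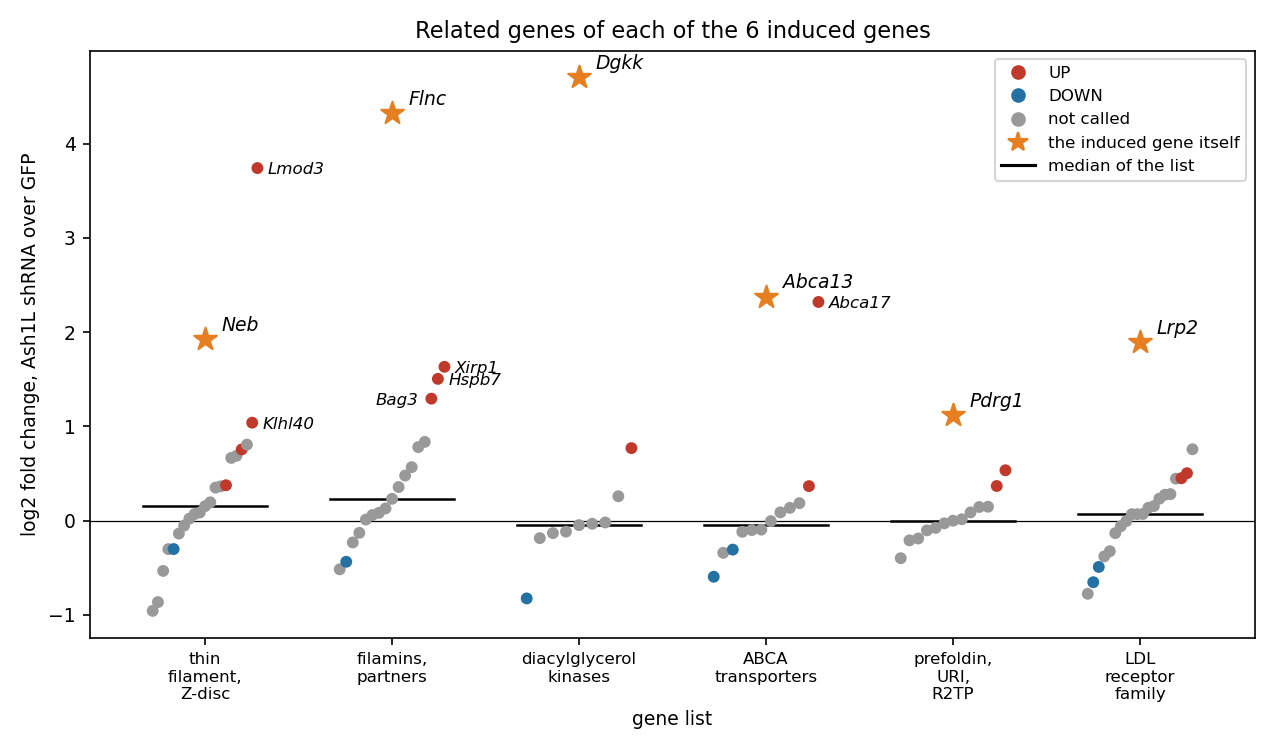
Log2 fold change (*Ash1L* shRNA over GFP) of the tested genes of each related list, with UP, DOWN and uncalled genes in different colours, the median of each list as a line and the induced gene itself as a star. The list medians lie between -0.05 and 0.23, and the stars mark genes that were picked for their rise.

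The nearest counted genes on each side were then examined. Of the 31 tested among 36 neighbours, 1 was UP and 1 was DOWN, against 8.61% and 8.28% of all tested genes, and the median log2 fold change was 0.08. The UP gene was *Dhrs9*, which encodes a dehydrogenase of retinoid and steroid metabolism and lies 19.807 kb from *Lrp2* on the opposite strand. It had 3 and 3 counts in the GFP samples and 54 and 114 in the shRNA samples, which gave 4.81 on the log2 scale (standard error 0.79, adjusted p = 0.240, edgeR's quasi-likelihood test). It was UP with any 1 sample left out, at 3.91 to 5.39, and its size depends on 6 control counts. *Ccdc136*, 6.262 kb from *Flnc*, was DOWN at -0.46 (standard error 0.12, adjusted p = 0.253 in edgeR's test), and it was not called without GFP sample 1 (-0.39). *Ttll9*, only 0.408 kb from *Pdrg1* on the opposite strand, was at -0.28 (standard error 0.45) and was not called. The 6 tested neighbours of *Neb* ran from -0.16 (*Nmi*) to 0.78 (*Tnfaip6*), without a call.

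**Figure D5:**
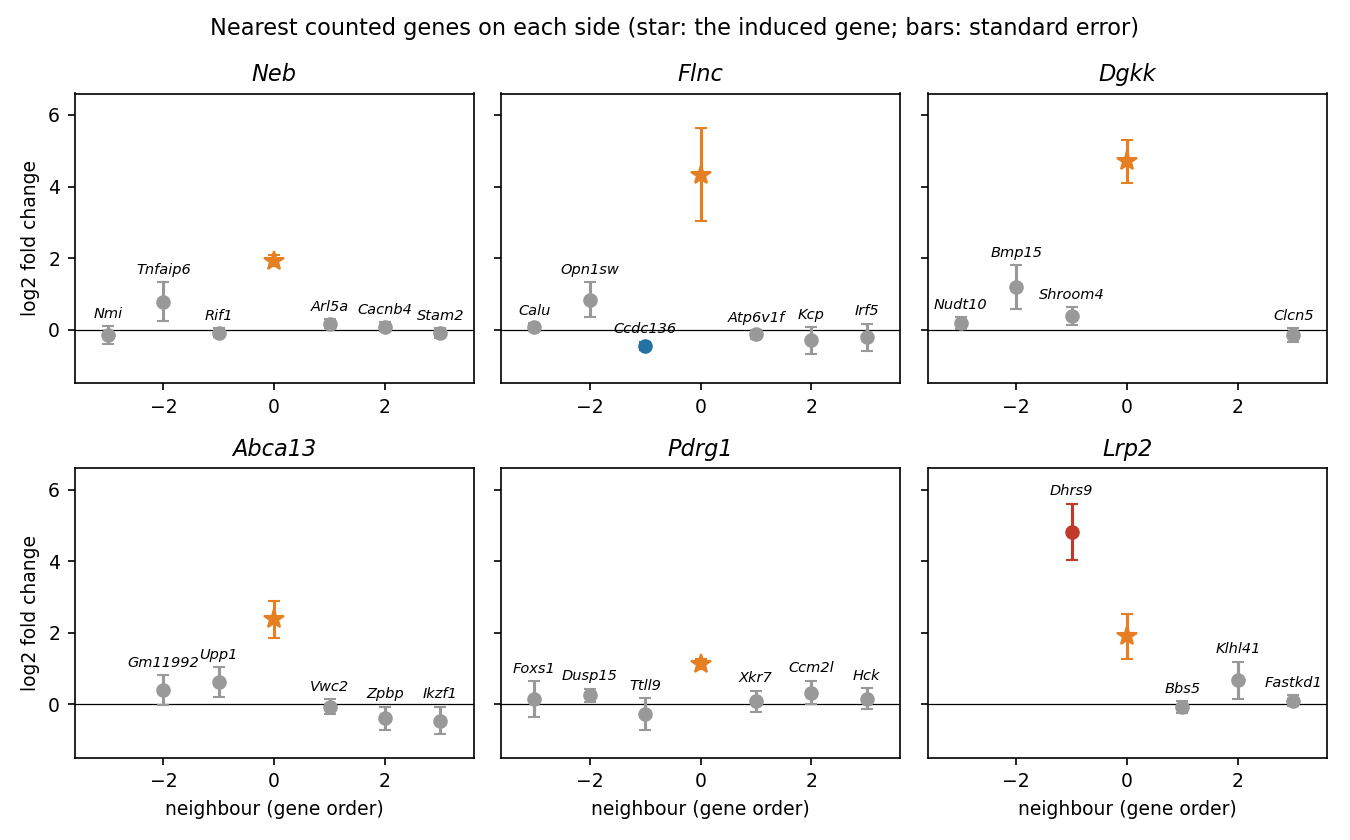
Log2 fold change with standard errors of the 3 nearest counted genes on each side of the 6 genes in gene order, 1 panel per gene, with the induced gene as a star. *Dhrs9* beside *Lrp2* (4.81) is the highest, and the other tested neighbours lie between -0.46 and 1.19.

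Markers of other cell types were set beside the 6 genes, because *Neb* and *Flnc* are muscle genes and *Lrp2* is a gene of the choroid plexus. Their counts of calls stand against the same 8.61% UP and 8.28% DOWN over all tested genes. For skeletal muscle, 14 of 16 markers were tested, 1 was UP and the median was -0.08. The summed level was 74.4 and 65.1 CPM in the GFP samples and 64.8 and 83.2 CPM in the shRNA samples. *Tnnc2*, for fast troponin C, was the UP gene at 3.8 on the log2 scale with 1, 5, 32 and 48 counts, while *Ttn*, for titin, was at -0.09 without a call. *Acta1*, for skeletal actin, had 169, 339, 377 and 306 counts, or 11.97, 9.66, 13.76 and 14.76 CPM. In CPM it was higher in both shRNA samples without overlap, as were 26.5% of all tested genes. It was not called at 0.41 (standard error 0.19). *Ckm*, for muscle creatine kinase, had 3, 1, 3 and 5 counts, too few to be tested. The part of muscle tissue in the level of *Neb* or *Flnc* was not tested. For smooth muscle and pericytes, 2 of 10 markers were UP, *Cnn1* (calponin) with 8, 58, 132 and 305 counts and *Abcc9* at 0.41, and the summed level was 243, 254, 265 and 240 CPM. *Acta2* was not called at -0.38.

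Shared with *Lrp2* and *Flnc* was a higher summed level of the ependymal and choroid plexus markers in shRNA sample 2. The 8 tested ependymal markers summed to 10.8 and 11.1 CPM in the GFP samples and to 11.8 and 27.6 CPM in the shRNA samples, with 3 UP genes (*Tmem212* at 3.67, *Ccdc153* at 2.60 and *Ak7* at 2.52) and *Foxj1*, the master regulator of motile cilia, at 0.19 without a call. The choroid plexus markers summed to 12.2, 13.2, 12 and 26.1 CPM, and 2 of the 8 tested were UP, *Slc4a5* (2.21) and *Aqp1* (1.58). The 8 ran from -0.68 (*Ttr*) to 2.21, with a median of 0.19. *Slc4a5* (0.77 and 0.53 CPM) and *Trpv4* (1.5 and 0.82 CPM) were lower in shRNA sample 2 than in shRNA sample 1. The other tested choroid plexus markers were higher in sample 2. *Otx2* had 0, 0, 0 and 25 counts, whereas *Ttr*, for transthyretin, the most abundant transcript of the choroid plexus, had 6, 48, 4 and 23 counts. *Ccdc153* and *Ak7* were not called without shRNA sample 2 or without GFP sample 1. *Slc4a5* lost its call in 5 of 16 alternatives. Both sums were more than 2-fold higher in shRNA sample 2 than in shRNA sample 1, as were *Lrp2* and *Flnc*, and their part in the result was not tested. Astrocyte markers moved the other way, with 9 of 10 DOWN, a median of -0.81 and sums of 5540, 5810, 4320 and 3110 CPM. Neuronal markers had 2 of 10 DOWN, a median of -0.26 and sums of 7040, 7390, 6330 and 5120 CPM. Of the 10, 8 were lower in both shRNA samples without overlap, against 26.8% of all tested genes. Microglial markers summed to 787, 819, 1040 and 413 CPM and oligodendrocyte markers, with 1 of 10 DOWN, to 2650, 3000, 2850 and 2510 CPM. Leptomeningeal markers, with 1 UP (*Lum*) and 2 DOWN of 10, summed to 117, 166, 147 and 129 CPM, and endothelial markers to 397, 361, 405 and 337 CPM. Of the 10 marker sums, only that of the ependymal list had both shRNA samples above both GFP samples, as the 6 genes did, with a margin of 11.8 against 11.1 CPM in sample 1.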

How the data were processed

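RNA from PFC punches of 2 GFP and 2 *Ash1L* shRNA samples was ribo-depleted and made into stranded libraries. The authors deposited raw counts for each gene symbol, made with STAR on mm10 and featureCounts, per the file headers and the submitters' notes. The labels instead name Cutadapt and TopHat2. Strand and multiple-mapping settings are not given in the sources used here, so overlapping or near-identical genes may share reads. The count tables gave 23420 symbols per sample, with 14251190 to 35764874 counts. Replicates are biological duplicates per the labels, and p-values measure the spread between these samples.

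Genes were filtered with filterByExpr (minimum count 10), normalized with TMM and tested with the quasi-likelihood F test of edgeR 4.0.16 (R 4.3.3), with Benjamini-Hochberg adjustment over 16232 genes. Standard errors were derived from the F statistic. The main edgeR fit, its likelihood ratio test, replicate block and length offset, and DESeq2 with defaults were tested on simulated data. The other code was not. Alternatives were DESeq2 1.42.0 with and without betaPrior, other scalings, filters and offsets, the replicate block, and each sample left out. The deviations of same-numbered samples correlated at -0.11, which does not pair them. Replicates differed by more than counting error (chi-square per degree of freedom 14.8 in GFP and 42.3 in shRNA samples).

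The 6 genes and all gene lists were chosen with earlier results of these data known. Named genes are the 6 genes, *Ash1l*, called or range-end genes of the related lists and neighbours, up to 4 abundant genes per list, and the 3 most alike genes per gene. Marker genes, *Nebl*, *Nrap*, *Lasp1*, *Flna*, *Ttll9* and examples in the marker lists were named after their values were seen. Coordinates, exonic length and GC content came from GENCODE vM21, in which 93.0% of symbols were matched. Promoter windows came from RefSeq for 5 of the 6 genes.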

Additional observations from a re-analysis of the deposited data

How the results depend on the processing

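No direction changed under any alternative run. The spread between replicates (SD on the log2 scale) was 0.124 in *Pdrg1* and 1.577 in *Flnc*, so it is a loose limit for genes that vary. With all 4 samples kept, the log2 fold changes of the 6 genes moved by less than this spread, except under DESeq2 with betaPrior, which shrinks fold changes toward 0 by construction. There *Neb* was 1.64, *Flnc* 0.40, *Dgkk* 1.74, *Abca13* 0.80, *Pdrg1* 1.00 and *Lrp2* 0.49. With single samples left out, the ranges were 1.80 to 2.10 for *Neb*, 2.06 to 5.15 for *Flnc*, 3.76 to 5.64 for *Dgkk*, 1.89 to 2.80 for *Abca13*, 1.00 to 1.23 for *Pdrg1* and 1.13 to 2.42 for *Lrp2*. A lone sample is assumed there to vary like the other group. With the replicate block, *Flnc* was 3.82 and *Neb* 1.94, 1052 genes were UP and 1020 DOWN, and 0 had an adjusted p under 0.05. With the pairing crossed, added after seeing the data, 1541 genes were UP, 1736 DOWN and 16 past the adjusted limit, and 12 related genes were DOWN. With the 1.5-fold limit 765 genes were UP and 491 DOWN. Leaving out samples gave 423 to 2368 UP, 306 to 2718 DOWN and 0 to 2502 genes past the adjusted limit. That last count, 1 as reported, was 421 in DESeq2, 407 with betaPrior, 479 in the likelihood ratio test, 34 without a filter and 0 with the block and a length offset. Related genes DOWN numbered 4 with upper-quartile scaling, with a length or GC offset and with the block and length offset. Without single samples, 1 to 20 related genes were UP and 0 to 14 DOWN, and 1 to 3 neighbours were UP and 0 to 3 DOWN. With at least 10 counts in every sample 0 neighbours were UP, and *Dgkk*, *Abca13* and *Lrp2* were not tested. Apart from the 6 genes, 47 single genes were followed over 789 alternatives, of which 649 kept the call and 140 lost it. The cause of these shifts was not tested. Depth limits *Dgkk*, *Abca13* and *Lrp2*, with 4 to 12 counts in the GFP samples.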
